A study of Mus musculus with 2 samples.

Results

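The proteasome genes of mouse intestinal adenoma organoids were examined by single-cell 3′ RNA sequencing. Members were taken by gene symbol: Psm followed by a, b, c, d, e, f or g and a digit, without the immunoproteasome genes Psmb8, Psmb9 and Psmb10, and with the Ensembl identifier in the gene tables of both libraries. The rule gave 47 of the 27514 genes that both tables hold. They are 7 alpha and 7 beta subunits of the 20S core particle, 9 base and 8 lid subunits of the 19S regulatory particle, 4 activators with 1 inhibitor, and 7 assembly chaperones. A further 4 symbols are not constitutive subunits of the common proteasome: Psma8, the alpha subunit of male germ cells, Psmb11, the beta subunit of the thymus cortex, Psme2b, a close copy of Psme2, and Psmc3ip, a recombination factor that shares only the letters of its symbol. The label of a constitutive proteasome set therefore holds for 43 of the 47, and these are the 43 that reached 20 CPM, the scaled count explained below, in either epithelial group.

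The organoids came from adenomas of C57BL/6 mice of 17 weeks with the genotype ApcMin/+, in which the tumour suppressor Apc, a brake on Wnt signalling, is inactive on 1 allele from birth. One culture was grown with R-spondin 1, a secreted protein that strengthens Wnt signals, joined to the Fc part of an antibody (RSPO1-Fc) at 10 µg/ml (a second label of this sample gives the same number in mg/ml), and the control culture without it. Each group held 1 library, so no p-value was computed, no difference has a replicate check, and every difference between the cultures is a difference between these 2 libraries. Counts are of unique molecular identifiers (UMIs), which mark single captured RNA molecules, and were summed over the cells of a group and scaled to the same total in every group (CPM). A cell needed at least 9810 UMIs (control) or 5960 UMIs (RSPO1-Fc), and an epithelial cell at least 5 UMIs of the epithelial adhesion gene Epcam.

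This gave 1881 control and 2751 RSPO1-Fc epithelial cells with medians of 27736 and 23548 UMIs per cell. In the control library 381 further cells were under the Epcam limit and held at least 10 UMIs of markers of other cell types (median 14630 UMIs): 80 fibroblast-like, 192 macrophage-like, 31 pericyte or smooth muscle-like and 78 endothelial-like cells, of which 93 also held at least 10 UMIs of a second list. None of the 16 RSPO1-Fc cells under the Epcam limit passed the marker limit, so non-epithelial cells were compared within the control library alone. Epithelial cells with at least 10 UMIs of non-epithelial markers numbered 225 among control and 20 among RSPO1-Fc cells. All 11 epithelial markers were above 5 CPM in both epithelial groups. The libraries shared no cell barcode, and they differed in more than the treatment: the control matrix lists 6794880 barcodes and 31053 genes and the RSPO1-Fc matrix 737280 and 27998, and UMIs of Xist, the RNA of the inactive X chromosome, numbered 100820 in control and 3 in RSPO1-Fc epithelial cells. These differences cannot be told apart from RSPO1-Fc in any comparison of the 2 cultures.

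The proteasome degrades proteins that carry chains of ubiquitin. Its 20S core is a barrel of stacked rings in which the alpha subunits form the gate and 3 of the beta subunits cut the substrate. The 19S particle caps the barrel, binds and removes ubiquitin with its lid and its receptors, and unfolds the substrate with the ATPases of its base. Other caps (PA28 and PA200) open the barrel without ubiquitin, and chaperones guide the assembly. Under interferon, and constitutively in immune cells, Psmb8, Psmb9 and Psmb10 replace the catalytic beta subunits and form the immunoproteasome. When proteasome activity falls, the transcription factor NRF1, the product of Nfe2l1, raises subunit genes together through antioxidant response elements.

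Promoter stretches of 5 genes are given because the results below turn on these genes: the catalytic subunits Psmb5 and Psmb6, the PA28 genes Psme1 and Psme3, which moved in opposite directions between the cultures, and Psmb8, the immunoproteasome gene that differed most between the epithelial groups. They were chosen with the values known. Each runs from 120 bases before the annotated start to 30 bases from the start on, on the strand of the gene, from RefSeq on GRCm38.p6. The stretch of Psme1 lies wholly inside the gene span given below from GENCODE, which begins before it. Capitals mark the motif found: TGACNNNGC, the core of the antioxidant response element, in Psmb5 and Psmb6, an interferon response motif, 2 copies of GAAA that stand 2 bases apart, in Psme1 (on the other strand), CCAAT in Psme3 (on the other strand) and TTCNNNGAA, the STAT motif, in Psmb8.
Psmb5, chr14:54617966-54618115, minus strand: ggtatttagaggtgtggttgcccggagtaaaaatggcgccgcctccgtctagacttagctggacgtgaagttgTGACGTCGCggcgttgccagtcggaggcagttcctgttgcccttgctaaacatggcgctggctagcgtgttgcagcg
Psmb6, chr11:70525237-70525386, plus strand: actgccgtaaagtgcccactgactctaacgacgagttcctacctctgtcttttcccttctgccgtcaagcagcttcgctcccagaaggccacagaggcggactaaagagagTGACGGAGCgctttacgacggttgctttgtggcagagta
Psme1, chr14:55578374-55578523, plus strand: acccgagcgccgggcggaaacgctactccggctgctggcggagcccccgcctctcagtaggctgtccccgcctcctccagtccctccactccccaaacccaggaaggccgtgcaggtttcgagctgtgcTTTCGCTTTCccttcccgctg
Psme3, chr11:101316093-101316242, plus strand: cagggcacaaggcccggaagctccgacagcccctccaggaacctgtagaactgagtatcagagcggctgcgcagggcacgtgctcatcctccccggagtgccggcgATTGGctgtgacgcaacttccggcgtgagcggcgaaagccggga
Psmb8, chr17:34198075-34198224, plus strand: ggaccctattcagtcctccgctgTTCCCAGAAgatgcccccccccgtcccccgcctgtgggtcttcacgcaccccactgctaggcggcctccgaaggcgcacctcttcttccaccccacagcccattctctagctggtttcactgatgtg

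Of the 47 members, 39 have a promoter of 300 bases in the table, 250 before and 50 from the start on. TGACNNNGC was present on either strand in 6 of the 39 (15.4%: Psmb5, Psmb6, Psmc6, Psmd12, Psmd9 and Psme4), beside 12.4% of all 32851 promoters. For every motif a member counted once if any of its promoters matched, while the share of all promoters counts each promoter by itself. In Psmb5 the match begins 47 bases and in Psmb6 9 bases before the start. CCAAT was in 35.9% of the members' promoters and 37.4% of all promoters, and TTCNNNGAA in 5.13% and 8.30%. The interferon response motif was in 5 members (12.8%) beside 3.44% of all, and the motif of nuclear respiratory factor 1 (an unrelated factor), GCGC and TGCGC with 1 base between them, in 7 (17.9%: Psma2, Psma3, Psma4, Psmc4, Psmc5, Psmd14 and Psmg1) beside 4.60%. Of the 7 alpha subunit genes, 5 held CCAAT and none held TGACNNNGC. Overlaps between different motifs were not removed, and a match is a string of letters and not a bound site.

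The members together made up a nearly equal share of the RNA in both epithelial groups and a smaller one in the other cells. They held 0.698% of the UMIs of control epithelial cells, 0.733% of those of RSPO1-Fc epithelial cells and 0.529% of those of control non-epithelial cells. With every cell thinned to 5000 UMIs, the median cell held 34, 37 and 25 member UMIs, and leaving out the 10% of cells at either end the sum ran from 25 to 45, 26 to 49 and 16 to 37. The cells of the epithelial groups overlapped almost wholly in this sum. Levels of different genes are given in CPM, which for 3′ UMIs is not divided by length. The highest member in both epithelial groups was the alpha subunit Psma7, with 442 CPM in control and 562 CPM in RSPO1-Fc cells. The lowest of the 43 was the inhibitor Psmf1 in both epithelial groups (23.1 and 26.3 CPM).

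**Figure D1:**
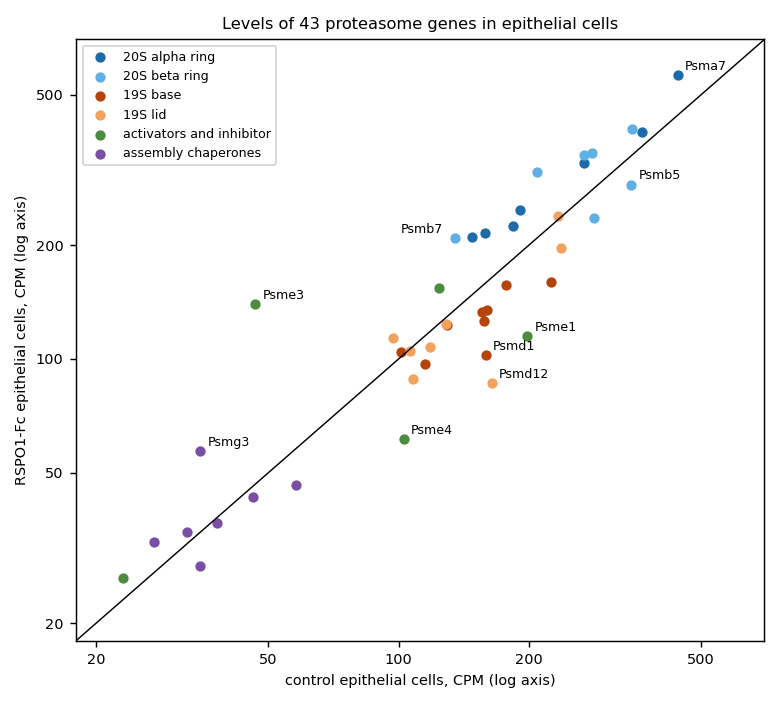
Level of each of the 43 proteasome genes past 20 CPM in control (horizontal) and RSPO1-Fc (vertical) epithelial cells, both in CPM on log axes, 1 point per gene and 1 library per group, coloured by role. The line marks equal levels, and with total-count scaling the alpha subunits lie above it while most 19S subunits lie on or below it, with Psme3 farthest above and Psmd12 farthest below.

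Between the cultures the rings of the 20S core and the 19S particle moved apart. All 7 alpha subunit genes and 5 of the 7 beta subunit genes were higher in RSPO1-Fc epithelial cells. In contrast, 8 of the 9 base and 6 of the 8 lid genes were lower. Of all 6911 genes that reached 20 CPM in either group, 41.7% were higher, so most genes were lower with this scaling. Summed over genes, the 20S core had 3621 CPM in control and 4338 CPM in RSPO1-Fc epithelial cells (1.198-fold, 95% interval 1.192 to 1.204), and the 19S particle had 2575 and 2197 CPM (0.853-fold, 0.847 to 0.859). Intervals are exact for the counts and cover counting error only. The number of 20S UMIs per 19S UMI, which does not depend on how the libraries are scaled, was 1.41 (1.40 to 1.41) in control and 1.97 (1.96 to 1.99) in RSPO1-Fc epithelial cells. In the control non-epithelial cells it was 1.37 (1.34 to 1.41), and in their 4 classes it ran from 1.28 to 1.47. The RSPO1-Fc value lay above every class of the control library.

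The direction of the 19S particle on its own depends on the scaling. The summed 20S core was higher under every alternative setting (log2 ratio 0.16 to 0.60). With weighted trimmed mean (TMM) scaling, which sets a weighted mean of the gene ratios without their extremes to 0, the median of all genes moved from -0.18 to 0.21 on the log2 scale. The summed 20S genes were then 0.60 higher and the summed 19S genes 0.11 higher, so that the lower level of the 19S genes held for the total counts and for the scaling to the median gene (-0.05) but not for TMM. With TMM all 7 genes of each ring, 7 of the 9 base genes, 7 of the 8 lid genes and all 7 chaperones lay above 0. Against the median of all genes, the alpha ring had 7 of 7 and the beta ring 5 of 7 genes above it under these scalings, the base 2 of 9, and the lid 5 of 8 or, with TMM, 4 of 8.

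Shorter transcripts had higher ratios in this comparison across all genes, and 20S genes are shorter than 19S genes. The median log2 ratio was 0.25 in the shortest of 10 equal groups of genes and -0.80 in the longest, and the Spearman correlation of length and ratio was -0.34 across 6861 genes and -0.22 across the 43 members. These are correlations across genes of the same 2 libraries and not across replicates. The median annotated transcript of the 20S genes measures 1120 bases and that of the 19S genes 1591 bases. With the median of each length group subtracted from its genes, the log2 difference between the 20S and 19S sums was 0.42, beside 0.49 without it. Its range over all alternative settings was 0.42 to 0.53.

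Ribosomal protein genes were also higher in the RSPO1-Fc library: they took 21.0% of the UMIs of control and 27.5% of those of RSPO1-Fc epithelial cells. The mitochondrial share was 6.39% and 3.61%. Over 4 groups of control cells of rising total UMIs the 20S to 19S ratio ran from 1.35 to 1.43, and in RSPO1-Fc cells from 1.90 to 2.06. Over 4 groups by mitochondrial share the ranges were 1.33 to 1.48 and 1.80 to 2.05. The 2 cultures did not overlap in any of these groups.

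Singly, few members passed 1.5-fold, the limit used here to call a difference at 20 CPM or more in either group. Of the 43, 3 were called higher in RSPO1-Fc epithelial cells (Psme3, Psmg3 and Psmb7) and 4 lower (Psmd12, Psme1, Psme4 and Psmd1). Of all 6911 genes past the same limit, 15.9% were called higher and 31.9% lower, which are larger shares than those of the members. Their median log2 ratio was -0.02 and that of all genes -0.18, each computed with 1 CPM added, which understates low genes. The range ran from -0.92 (Psmd12) to 1.56 (Psme3). With TMM scaling 14 members were called higher, the added ones being subunits of the 20S core with Psmd5 and Psme2, and only Psmd12 lower, beside 31.1% and 19.1% of all genes. Of all genes called, 33.3% were higher with total counts, 46.8% after centring on the median gene and 61.9% with TMM.

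**Figure D2:**
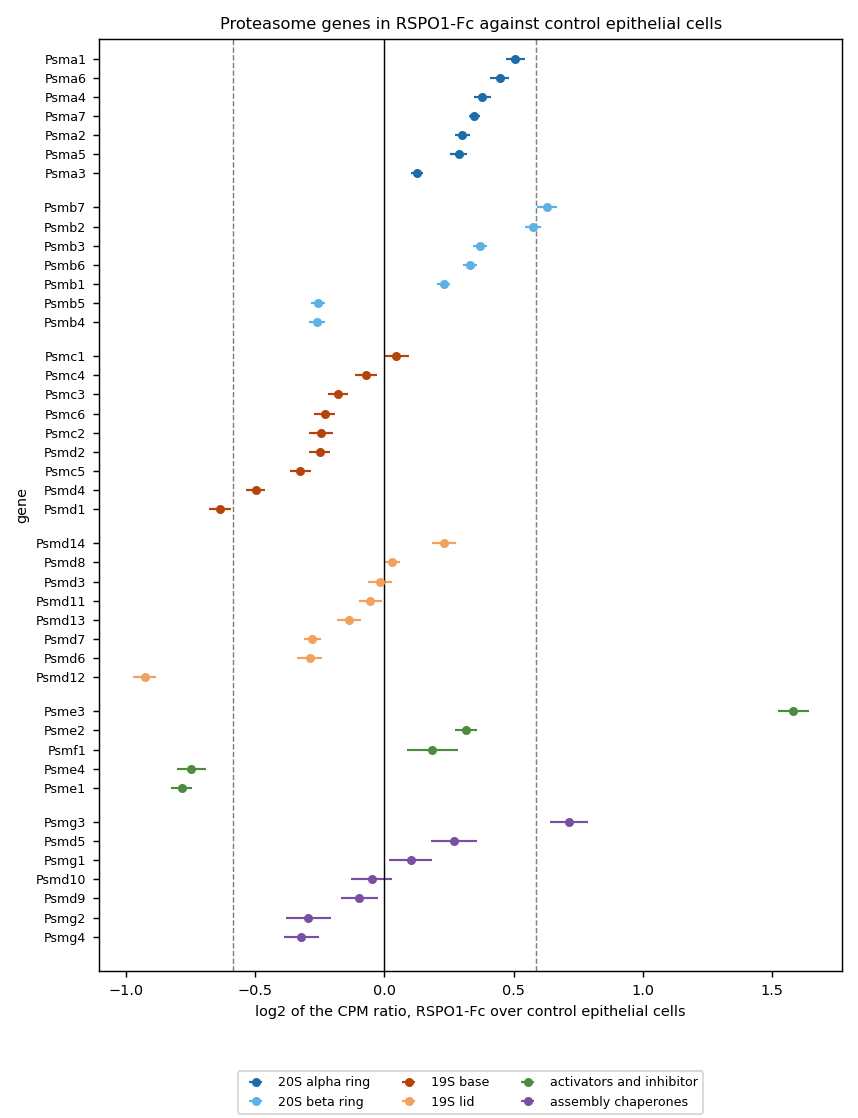
Log2 of the CPM ratio of RSPO1-Fc over control epithelial cells for 43 proteasome genes, grouped and coloured by role, with 95% counting intervals as bars and dashed lines at 1.5-fold. With total-count scaling all alpha ring genes lie right of 0 and 8 of 9 base genes left of it (2 of 9 with TMM scaling), and Psme3 stands alone at 2.99-fold.

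In the alpha ring, which gates the core, the ratios were alike. Psma7 had 442 CPM in control and 562 CPM in RSPO1-Fc cells, and Psma1 had 148 and 210 CPM (1.42-fold, 1.38 to 1.46). On the log2 scale the ring ran from 0.13 (Psma3) through 0.29 (Psma5), 0.30 (Psma2), 0.35 (Psma7), 0.38 (Psma4) and 0.44 (Psma6) to 0.50 (Psma1). None reached 1.5-fold, and all 7 lay on 1 side. The table places a further gene, AW209491, on the same strand over Psma2, so its count is uncertain.

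In the beta ring the 3 catalytic genes moved differently. Psmb5, the chymotrypsin-like subunit and the target of bortezomib, had 345 CPM in control and 289 CPM in RSPO1-Fc cells (0.838-fold, 0.822 to 0.854), though with TMM scaling its log2 ratio was 0.09. Psmb6, the caspase-like subunit, had 279 and 351 CPM (1.26-fold, 1.23 to 1.28). Psmb7, the trypsin-like subunit, had 135 and 208 CPM (1.55-fold, 1.51 to 1.59). The order of the 3 levels within the control library, Psmb5 over Psmb6 over Psmb7, became Psmb6 over Psmb5 over Psmb7 in the RSPO1-Fc library. Of the structural subunits Psmb2 was close to the limit (209 and 312 CPM, 1.49-fold, 1.46 to 1.52), Psmb3 and Psmb1 were 1.29-fold and 1.17-fold higher, and Psmb4, with a log2 ratio of -0.26, was lower as Psmb5 was.

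In the 19S base, the scaffold subunit Psmd1 had 159 CPM in control and 102 CPM in RSPO1-Fc cells and was the only base gene called (1.55-fold lower, 1.51 to 1.60). A further annotated gene, Gm21972, shares its strand and place. Psmd4, a ubiquitin receptor, had 225 and 160 CPM (log2 ratio -0.50). The other scaffold, Psmd2, had a log2 ratio of -0.25. Of the 6 ATPases, Psmc5 (-0.32), Psmc2 (-0.24), Psmc6 (-0.23), Psmc3 (-0.18) and Psmc4 (-0.07) were lower, and Psmc1 was level (101 and 105 CPM, 1.03-fold, 1.00 to 1.07).

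In the lid, Psmd12 had the lowest ratio of all members, with 164 CPM in control and 86.3 CPM in RSPO1-Fc cells (1.90-fold lower). Thinned to 5000 UMIs per cell, 56.0% of control and 34.4% of RSPO1-Fc epithelial cells held a Psmd12 UMI (96.6% and 83.2% without thinning). The other lid genes stayed nearer to 0 on the log2 scale: Psmd6 -0.29, Psmd7 -0.28, Psmd13 -0.13, Psmd11 -0.05, Psmd3 -0.02, Psmd8 0.03 and Psmd14, the deubiquitinase of the lid, 0.23. Psmd12 thus differed from its lid partners by more than they did from each other. Over all alternative settings the log2 ratio of Psmd12 ran from -0.96 to -0.58. It was called lower with total counts, with scaling to the median gene and, close to the 1.5-fold limit, with TMM. Of these scalings, Psme1 was called lower with the first 2, and Psme4 and Psmd1 with total counts alone. With mitochondrial and ribosomal protein genes left out of the total, Psmd12, Psme1 and Psme4 were called lower.

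The PA28 genes went in opposite directions. Psme3, the subunit of the nuclear PA28γ ring, had 46.7 CPM in control and 139.7 CPM in RSPO1-Fc epithelial cells (2.99-fold, 2.87 to 3.12), the largest difference of any member. Psme1, which forms the interferon-inducible cytoplasmic PA28αβ ring with Psme2, had 198 and 115 CPM (1.72-fold lower), while Psme2 itself had 124 and 154 CPM (1.24-fold higher, 1.21 to 1.28). Psme3 took 12.7% of the UMIs of the 3 genes in control and 34.1% in RSPO1-Fc cells. In cells thinned to 5000 UMIs a Psme3 UMI was found in 376 of 1881 control cells (95% Clopper-Pearson interval 18.2% to 21.9%) and in 1318 of 2751 RSPO1-Fc cells (47.9%, 46.0% to 49.8%). At full depth these shares were 68.4% and 90.8%. No class of cells here is known to lack proteasome genes, and these shares were not corrected for free RNA. Psme1 and Psme2 are neighbours on chromosome 14 (GRCm38, 55578123-55581529 and 55587441-55591113, on opposite strands), and Psme3 lies on chromosome 11 (101316213-101323537).

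Psme4, the single-chain activator PA200, had 103 and 61.3 CPM (1.68-fold lower). It has the longest transcript of its role, 6491 bases, and its log2 ratio of -0.74 became 0.07 when the median of genes of like length was subtracted. The part of transcript length in this difference was not tested further. Psmf1, the inhibitor PI31, was 1.14-fold higher (1.06 to 1.22).

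Of the assembly chaperones, only Psmg3, which with Psmg4 helps to build the alpha ring, was called, with 34.8 CPM in control and 57.1 CPM in RSPO1-Fc cells (1.64-fold, 1.56 to 1.73). The table places Gm26938 over it on the same strand. Psmg4 itself had a log2 ratio of -0.31, and the partners Psmg1 and Psmg2 had 0.10 and -0.28, though with TMM scaling all of these lay above 0. Of the base chaperones, Psmd5 had 0.26, Psmd9 -0.09 and Psmd10, the only member on the X chromosome, -0.05 (38.1 and 36.8 CPM). With total counts the 2 libraries thus had like levels of Psmd10 while they differed in Xist as given above. Over all alternative settings the log2 ratio of Psmd10 ran from -0.16 to 0.43.

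The 4 members under 20 CPM in both epithelial groups were the 4 that are no constitutive subunits. Psma8 had 4 UMIs in control and 0 in RSPO1-Fc epithelial cells, Psmb11 had 3 and 2, and no ratio is given for them. Psmc3ip had 10.9 and 14.0 CPM. Psme2b had 2.33 and 4.01 CPM, and reads of its close copy Psme2 and of 2 overlapping genes cannot be told apart from its own.

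Among other genes of the pathway, 34 were matched and 30 passed 20 CPM, of which 5 were called higher and 5 lower in RSPO1-Fc epithelial cells, beside 15.9% and 31.9% of all genes. The share called higher was thus near that of all genes, and the values below describe single genes. Nfe2l1, which encodes NRF1, had 89.0 CPM in control and 37.4 CPM in RSPO1-Fc cells (2.38-fold lower), and Ddi2, the protease that activates NRF1, had 57.3 and 30.4 CPM (1.88-fold lower). Nfe2l2, which encodes the related factor NRF2, had 186 and 169 CPM (log2 ratio -0.14, or 0.20 with TMM). AI314180, the adaptor ECM29 that holds core and cap together, was 2.39-fold lower. Over all alternative settings the log2 ratio of AI314180 ran from -1.30 to -0.70 and that of Nfe2l1 from -1.25 to -0.78. Ddi2 was not followed over these settings. Adrm1 (1.504-fold) and Uchl5 (1.73-fold), a ubiquitin receptor of the 19S particle and the deubiquitinase bound to it, were called higher, as were the shuttle factor Rad23b (1.76-fold) and Ubqln4 (1.71-fold). The small heat shock gene Hspb1 was 4.58-fold lower, Pomp, which matures the core, had 290 and 331 CPM, and Sem1, the smallest lid subunit, 524 and 603 CPM.

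The immunoproteasome genes were low in both epithelial groups. Psmb8 had 23.5 CPM in control and 3.67 CPM in RSPO1-Fc cells (6.42-fold lower), Psmb9 had 6.43 and 2.15 CPM, and Psmb10 39.7 and 38.2 CPM (log2 ratio -0.05, or 0.28 with TMM). Together they took 8.41% (8.18 to 8.65) of the UMIs of the 6 catalytic genes in control and 4.93% (4.77 to 5.11) in RSPO1-Fc epithelial cells. Markers of macrophages, which hold much Psmb8, summed to 157 CPM in control and 4.30 CPM in RSPO1-Fc epithelial cells, with 4 of the 10 at 0 in the latter. Their part in the Psmb8 difference was not tested. Of the 11 genes of the interferon response, 4 passed 20 CPM, of which 3 were called lower in RSPO1-Fc cells and 1 was higher without reaching 1.5-fold, beside 31.9% of all genes called lower.

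Genes of the cell cycle were higher in the RSPO1-Fc culture, with 8 of 15 G2 and M phase genes and 9 of 16 S phase genes called higher and none lower, beside 15.9% and 31.9% of all genes. Members were therefore compared between cells of each library, thinned to 5000 UMIs, that held at least 5 UMIs of the G2 and M phase list and cells that held none. In the control library (268 and 1252 cells) Psme3 had 59.7 CPM in the former and 37.1 CPM in the latter, and in the RSPO1-Fc library (1044 and 386 cells) 149 and 109 CPM. Psme1 was lower in the G2 and M phase cells of both, with 164 and 225 CPM in control cells and 97.3 and 144 CPM in RSPO1-Fc cells. The members as a sum were at 1.12-fold (1.09 to 1.14) in the G2 and M phase cells of the control library and at 0.975-fold (0.957 to 0.994) in those of the RSPO1-Fc culture. With the S phase list in place of the G2 and M phase list, they were higher in both libraries (1.104-fold, 1.08 to 1.13, and 1.05-fold, 1.03 to 1.08). The cells chosen for G2 and M phase were deeper before thinning (medians of 46866.5 against 25154 UMIs among control cells and 29722.5 against 19553.5 UMIs among RSPO1-Fc cells). Cells without any G2, M or S phase UMI after thinning numbered 548 in control and 62 in RSPO1-Fc. At full depth these cells can still hold such UMIs. In their full-depth counts the log2 ratio of Psme3 between the cultures was 1.35, beside 1.56 in all cells.

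Within cells, 20S and 19S counts went together only weakly. Over thinned cells the Pearson correlation of the 2 sums was 0.24 in 1881 control epithelial cells, 0.26 in 2751 RSPO1-Fc epithelial cells and 0.44 in 381 non-epithelial cells, which mix several cell types. These describe cells of 1 library each, and the medians behind them, 17 and 13 UMIs per cell in control and 22 and 11 in RSPO1-Fc cells, leave much counting noise.

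In the control library the non-epithelial cells had less of nearly every member than the epithelial cells beside them. Of the 43 members, 41 were lower, with a median log2 ratio of -0.40 beside -0.19 for all genes, and the summed members were 0.759-fold (0.750 to 0.767). None was called higher and 7 lower (Psmg2, Psmg1, Psma7, Psmc6, Psmd12, Psmg3 and Psme4), beside 26.7% and 30.2% of all 7886 genes. Of all genes called, 47.0% were higher with total counts and 57.4% after centring on the median gene, which left 1 member called lower, Psmg2. The core (0.736-fold) and the 19S particle (0.753-fold) were lower by nearly the same factor, unlike between the cultures.

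**Figure D3:**
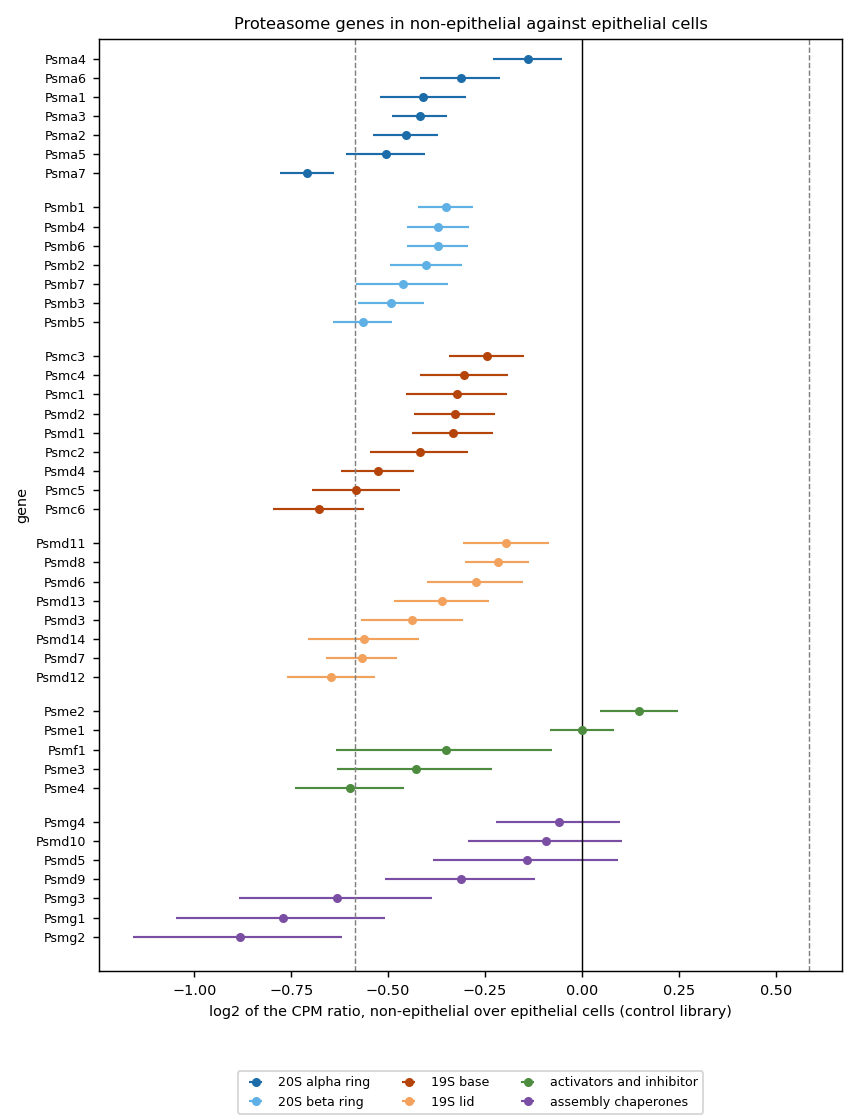
Log2 of the CPM ratio of non-epithelial over epithelial cells within the control library for 43 proteasome genes, grouped and coloured by role, with 95% counting intervals as bars and dashed lines at 1.5-fold. All core and 19S genes lie left of 0, while Psme2 and Psme1 lie at or just right of it.

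Among the core subunits, Psma7 differed most, with 442 CPM in epithelial and 270 CPM in non-epithelial cells (1.64-fold lower). The catalytic genes had log2 ratios of -0.56 (Psmb5), -0.37 (Psmb6) and -0.46 (Psmb7), and Psma4 was nearest to level (191 and 173 CPM, log2 ratio -0.14). In the 19S particle, the ATPase Psmc6 had 156 and 97.5 CPM (1.60-fold lower) and Psmd12 164 and 105 CPM (1.57-fold lower). Of the chaperones, Psmg2 (34.8 and 18.9 CPM, 1.84-fold lower) and its partner Psmg1 (32.5 and 19.1 CPM, 1.71-fold lower) had the lowest ratios of all members, while Psmg4 (-0.06), Psmd10 (-0.09) and Psmd5 (-0.14) stayed near 0. Psme4 was 1.51-fold lower.

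The exceptions were the interferon-inducible PA28 genes. Psme1 had 198 CPM in both epithelial and non-epithelial cells and Psme2 124 and 137 CPM (1.11-fold, 1.03 to 1.19). Psme3, by contrast, had 46.7 and 34.7 CPM (0.743-fold, 0.645 to 0.851). Beside them, Psmb8 had 23.5 and 210.2 CPM (8.93-fold, 8.30 to 9.61), Psmb9 6.43 and 69.0 CPM (10.7-fold) and Psmb10 39.7 and 86.7 CPM (2.18-fold). The 3 immunoproteasome genes took 40.1% (38.9 to 41.4) of the catalytic UMIs in the non-epithelial cells. Pomp had 290 and 349 CPM, Nfe2l1 89.0 and 125 CPM, Nfe2l2 186 and 274 CPM and Adrm1 66.0 and 41.1 CPM.

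**Figure D4:**
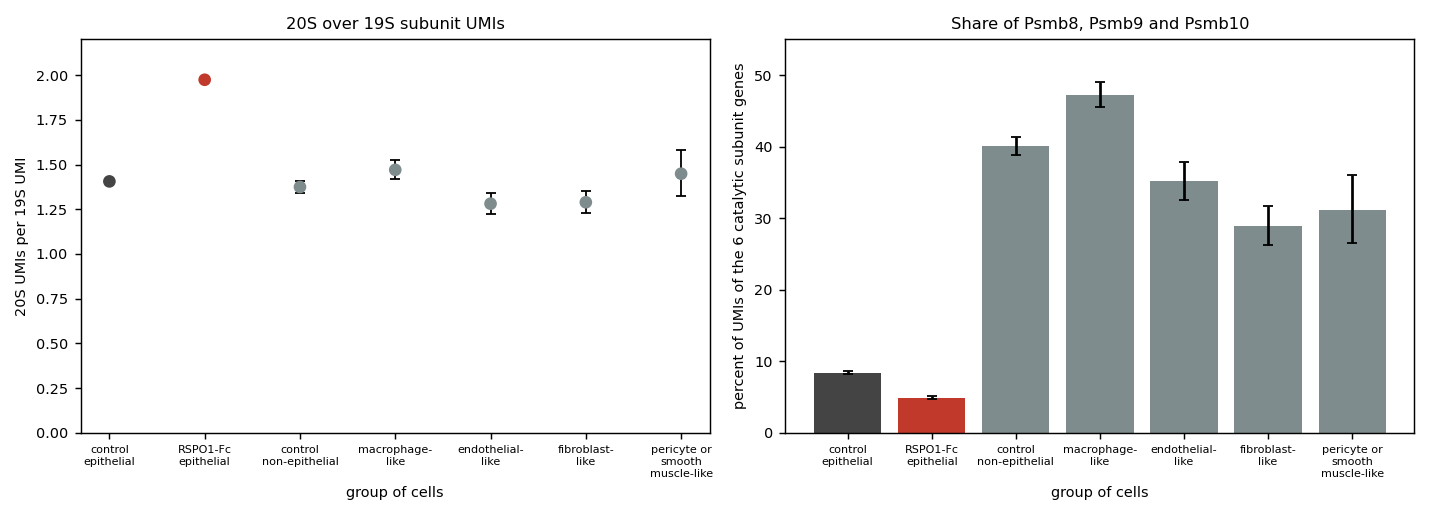
Left, number of 20S core UMIs per 19S UMI, and right, share of Psmb8, Psmb9 and Psmb10 in the UMIs of the 6 catalytic subunit genes, in 7 groups of cells with 95% counting intervals. The RSPO1-Fc epithelial cells stand above all others on the left (1.97), and the macrophage-like cells on the right (47.3%).

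The median log2 ratio of the members was below 0 in every class of non-epithelial cells, as was that of all genes. It was -0.49 beside -0.42 for all genes in macrophage-like cells and -0.39 beside -0.16 in endothelial-like cells. In fibroblast-like cells it was -0.28 beside -0.17, and in pericyte or smooth muscle-like cells -0.45 beside -0.14. Single genes differed between the classes. The macrophage-like cells had 18 members called lower and none higher (42.5% and 22.4% of all genes), the endothelial-like cells 10 and none (31.2% and 25.8%), the fibroblast-like cells 5 and none (32.5% and 26.8%), and the pericyte or smooth muscle-like cells, the fewest, 16 and none (33.4% and 28.0%). Against epithelial cells, Psme1 was 1.32-fold (1.23 to 1.42) and Psme2 1.33-fold (1.21 to 1.45) in macrophage-like cells. In the fibroblast-like cells Psme1 was 1.63-fold lower while Psme2 was level (1.03-fold, 0.875 to 1.198). Psmg1 and Psmg2 were 2.43-fold and 2.37-fold lower in macrophage-like cells, and 0.855-fold (0.597 to 1.19) and 0.820-fold (0.576 to 1.13) in fibroblast-like cells, whose intervals include no difference. The share of Psmb8, Psmb9 and Psmb10 in the catalytic UMIs was 47.3% in macrophage-like, 35.2% in endothelial-like, 31.1% in pericyte or smooth muscle-like and 28.9% in fibroblast-like cells, and the interval of the pericyte or smooth muscle-like cells (26.5 to 36.1) reaches into those of both neighbours.

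**Figure D5:**
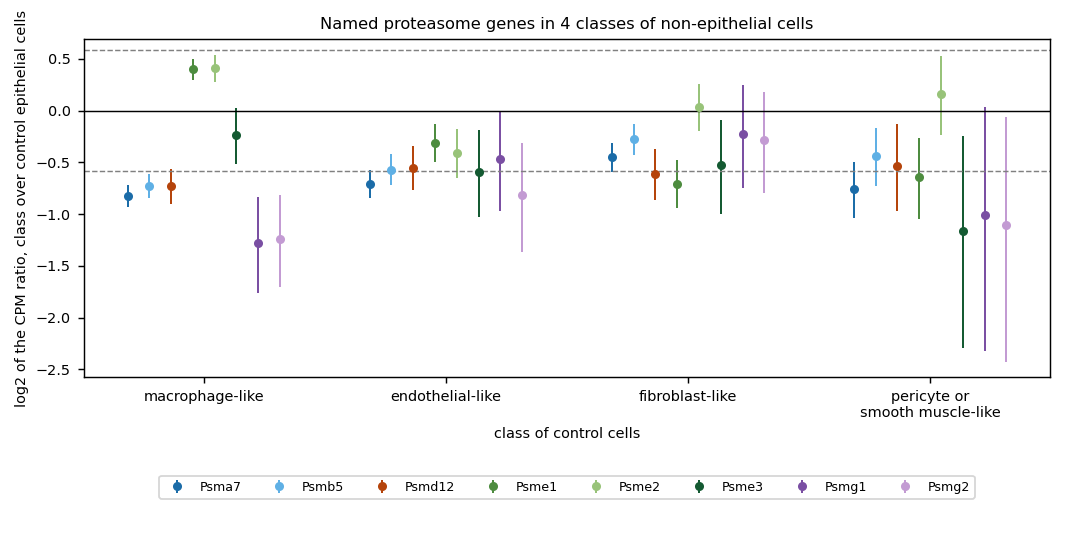
Log2 of the CPM ratio of each of 4 classes of control non-epithelial cells over control epithelial cells for 8 named proteasome genes, with 95% counting intervals as bars and dashed lines at 1.5-fold. Psme1 and Psme2 lie above 0 in the macrophage-like cells, where Psmg1 and Psmg2 lie lowest, and the bars are widest for the 31 pericyte or smooth muscle-like cells.

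The gates bear on these class values. Markers of fibroblasts summed to 9102 CPM in the pericyte or smooth muscle-like cells (median 110 UMIs per cell), beside 21803 CPM in the fibroblast-like cells, and markers of pericytes or smooth muscle to 2860 CPM in the fibroblast-like cells. Among cell types that no class was gated for, mast cell markers summed to 229 CPM (median 3 UMIs per cell) and erythroid markers to 213 CPM in the endothelial-like cells, and T cell markers to 43.5 CPM in the macrophage-like cells. Epithelial markers summed to between 76.2 and 161 CPM in the 4 classes, beside 9004 CPM in the control epithelial cells. Their part in the class values was not tested. Psme2b had 69 UMIs in non-epithelial cells (10.8 CPM beside 2.33 CPM in epithelial cells, 4.62-fold, 3.43 to 6.17), and Psma8 14 UMIs beside 4, both under the 20 CPM limit.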

How the data were processed

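The authors deposited UMI counts for each gene and barcode, with no normalization and no choice of cells. Alignment to mm10, Cell Ranger 2.1.1 and Seurat 3.1.1 are named in the submitters' processing notes, whereas per the file headers the control counts came from Cell Ranger 3.1.0. The processing of this file by the authors may thus have differed from that of the other. The label of the kit is the same for both samples. As the numbers of barcodes listed differ (6794880 and 737280), the label alone does not show that the kit was shared.

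The tables were joined on Ensembl identifiers. UMIs were summed per group of cells and scaled to CPM over shared genes in Python 3.11.15 (numpy 2.4.6, scipy 1.17.1, pandas 2.3.3). Library totals were 91675581 (control) and 89437327 (RSPO1-Fc) UMIs. Log2 ratios carry a pseudocount of 1 CPM and folds none. Intervals are 95% exact Poisson, conditional Clopper-Pearson (ratios) or Clopper-Pearson (shares). They were checked only on simulated Poisson counts, the model they assume. That check therefore does not cover variation between cells or libraries. TMM factors came from edgeR 4.0.16, used for scaling only. Likely doublets (scrublet scores, scanpy 1.11.5) were removed only as an alternative (41 and 61 cells). The member rule, the gene lists, the limits and the alternatives were chosen with earlier results of these data known. Genes named are the catalytic subunits, Psme1, Psme2, Psmd10, members under 20 CPM, the 5 highest and 5 lowest ratios of each comparison and up to 4 other pathway genes with Psmb8, Psmb9, Psmb10, Pomp, Adrm1, Nfe2l1 and Nfe2l2; Uchl5, Ubqln4, Ddi2, Sem1 and the per-role ratios were added after their values were seen. Some genes this rule selects are not reported here. Coordinates and transcript lengths are from GENCODE M21 (GRCm38), where 11 members also lie opposite another listed gene on the other strand.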

Additional observations from a re-analysis of the deposited data

Results flagged for a closer look

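Cells with at least 5 UMIs of the G2 and M phase list were compared with cells with none. With total-count scaling, the only one run here, the sum of the members and those of some roles moved in opposite directions in the 2 cultures. All members together were 1.12-fold in the control and 0.975-fold (0.957 to 0.994) in the RSPO1-Fc library. Their median log2 ratio was 0.20 beside -0.04 for all genes in the control library. In the RSPO1-Fc library it was -0.02 beside -0.05, so there the members did not fall below the median gene. Ribosomal protein genes were 1.23-fold and 1.15-fold, which lowers the share left for other genes. Whether the values below 1 hold under another scaling was not tested. The 20S core was 1.13-fold and 0.959-fold, its beta ring 1.08-fold and 0.927-fold, and the 19S base 1.15-fold and 0.945-fold. The 19S lid (1.14-fold and 1.07-fold) and the chaperones (1.12-fold and 1.07-fold, with intervals that include 1) lay above 1 in both, as were all members together with the S phase list (1.104-fold and 1.05-fold). The difference between the cultures was not tested, since each has 1 library.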

How the results depend on the processing

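In RSPO1-Fc against control epithelial cells, 3 members were higher and 4 lower. A 2-fold limit gave 1 and 0, centring on the median gene 6 and 2, TMM scaling 14 and 1, and thinning to 5000 UMIs 5 higher. The members' median of -0.02 became 0.16 (median-centred), 0.0831 (total without mitochondrial and ribosomal protein genes) and 0.32 (TMM). It became 0.0372 (mean of per-cell CPM) and 0.0872 (cells without G2, M or S phase UMIs after thinning). The last of these alternatives was added after the data were seen, as were the length adjustment and the subtraction of 10% free RNA. Of called members, Psme4 alone turned direction, to 0.0672 with the length adjustment. In control non-epithelial against epithelial cells, 0 members were higher and 7 lower. A 2-fold limit gave 0 lower, median centring 1, the total without mitochondrial and ribosomal protein genes 16 and thinning 15, while a minimum of 5 CPM gave 1 higher and no minimum 2 higher. The median of -0.40 became -0.21 (median-centred) and -0.53 (without mitochondrial and ribosomal protein genes). Apart from the scalings, whose construction shifts all genes alike, the cause of these moves was not tested. Free RNA was subtracted within the control library, at shares of 1.28% and 1.40% estimated from its cell classes. That estimate was not run for the comparison of cultures, where 10% of each library was subtracted instead. No paired analysis was possible because each group holds 1 library.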
